A study of Rattus norvegicus with 82 samples.

Results

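The angiogenic factors and hypoxia regulators described here were 9 genes, chosen by symbol from the 17337 genes of a rat cardiomyocyte RNA sequencing data set: the VEGF family ligands *Vegfa*, *Vegfb*, *Vegfc* and *Pgf*, the angiopoietins *Angpt1* and *Angpt2*, the apelin precursor *Apln*, and the hypoxia-inducible factor subunits *Hif1a* and *Epas1*. All 9 were found in the table, and all 9 passed the filter on low counts that left 11954 genes for testing. Cardiomyocytes of both ventricles, right (RV) and left (LV), came from 41 rats by collagenase digestion, filtration and low-speed centrifugation, and gave 82 libraries in 12 groups. The rats were F1 offspring of female Wistar Kyoto and male Lewis animals of both sexes, and carried no genetic modification named in the labels. They underwent a sham operation (Sham), pulmonary artery banding (PAB), which loads the RV, or aortic banding (AOB), which loads the LV. Hearts were taken 7 weeks after the operation in compensated hypertrophy (stage H), at a labelled age of 11 weeks, or later in decompensated heart failure (stage F). For stage F, Sham-F and AOB-F animals were labelled 26 weeks of treatment and 31 weeks of age, and PAB-F animals 22 weeks and 28 weeks, so that the PAB-F rats were younger than their controls. Sham groups held 7 animals at stage H and 9 at stage F, PAB groups 6 at either stage, and AOB groups 6 at stage H and 7 at stage F, each animal with 1 RV and 1 LV library. The sources used here gave differing ages at operation, and the labelled ages are the ones stated.

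VEGFA is the main growth factor by which oxygen-starved muscle recruits capillaries, and it acts on endothelial cells through the receptor KDR. VEGFB and placental growth factor (PGF) bind FLT1, and VEGFC acts through FLT4 on lymphatic and blood vessels. Angiopoietin 1 activates the receptor TEK and stabilizes vessels, whereas angiopoietin 2, made largely by endothelial cells, can oppose it. Apelin is a secreted peptide that acts on the receptor APLNR in vessels and heart muscle. HIF1A and EPAS1 (also called HIF2A) are the oxygen-sensitive subunits of transcription factors that pair with ARNT and switch on hypoxia genes, *Vegfa* among them. Their amounts are set mainly at the protein level, because prolyl hydroxylases such as EGLN3 mark them for removal by VHL when oxygen is present. Transcript levels, which are what was measured here, do not give the amount of active factor.

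The preparations were checked against cell type markers. The 10 ventricular cardiomyocyte markers took between 6.33% and 14.8% of all counts in a library. The 8 endothelial markers took between 0.0413% and 0.354%, with a median of 0.0521% in RV Sham-F and 0.247% in LV Sham-F libraries, and these 2 groups did not overlap. Apart from *Robo4* (0 in 35 libraries) and the fibroblast gene *Col1a2* (0 in 71 libraries), every marker of endothelial cells, mural cells, fibroblasts and macrophages had counts in all 82 libraries. In such bulk samples, fewer cells of a type and less RNA per cell cannot be told apart. In 9 libraries the summed endothelial or fibroblast share exceeded 2 times the median of the group: LV Sham-H replicate 4, LV and RV AOB-H replicate 6 (the same animal), LV PAB-H replicate 2, RV PAB-H replicates 1 and 2, LV and RV Sham-F replicate 3 (the same animal) and RV PAB-F replicate 1. Results of the 9 genes that change without these 9 libraries are given both ways. Genes of the further lists below were tested with all 82 libraries only. Library totals ranged from 6675287 (LV AOB-H replicate 6) to 19665439 counts, with a median of 13074486.

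Promoter sequence was at hand for 7 of the 9 genes, from RefSeq on build GRCr8, and not for *Angpt1* or *Angpt2*. The 250 bases before each start site were searched on both strands for ACGTG and GCGTG, the core to which HIF dimers bind. Among 33469 rat promoters of the same length, 36.7% held at least 1 match, 16.6% held ACGTG and 25.9% held GCGTG. Both HIF subunit genes and *Vegfa* are shown, since they are the regulators and their best known target, with matches in capitals and all else in lower case, written 5′ to 3′ on the strand of the gene.
Hif1a promoter (chr6:98359648-98359897, + strand): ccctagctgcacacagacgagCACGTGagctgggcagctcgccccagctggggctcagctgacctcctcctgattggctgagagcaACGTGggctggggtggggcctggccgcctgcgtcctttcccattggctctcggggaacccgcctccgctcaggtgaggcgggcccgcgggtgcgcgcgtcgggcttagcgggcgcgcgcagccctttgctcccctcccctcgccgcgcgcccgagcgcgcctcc
Epas1 promoter (chr6:13624730-13624979, - strand): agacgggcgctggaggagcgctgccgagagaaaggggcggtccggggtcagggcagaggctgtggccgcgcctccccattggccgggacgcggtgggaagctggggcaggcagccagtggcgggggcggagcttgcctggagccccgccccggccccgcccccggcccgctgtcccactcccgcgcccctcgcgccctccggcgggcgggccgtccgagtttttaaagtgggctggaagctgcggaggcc
Vegfa promoter (chr9:22452604-22452853, + strand): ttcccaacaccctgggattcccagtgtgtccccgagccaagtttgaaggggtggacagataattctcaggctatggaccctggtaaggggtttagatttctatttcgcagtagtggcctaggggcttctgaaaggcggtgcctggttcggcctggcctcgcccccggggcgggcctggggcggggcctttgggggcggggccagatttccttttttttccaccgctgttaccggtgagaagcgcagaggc
The *Hif1a* window held 3 matches to ACGTG, a pair of them overlapping on opposite strands at bases -229 to -224 from the start and the other at -164 to -160. Among all promoters, 6.21% held 3 or more matches. *Epas1* and *Vegfa* held none in these windows, nor did *Vegfc*, *Apln* or a second *Vegfa* start, and *Vegfb* and *Pgf* held 1 match to GCGTG each. A match describes the letters only. Sequence outside these windows was not searched, and a missing match says nothing about it.

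*Vegfa* was by far the most abundant of the 9 transcripts. On the deposited FPKM scale (fragments relative to gene length and library depth), which allows genes of different length to be compared, *Vegfa* averaged 418 over the 82 libraries, followed by *Epas1* at 207 and *Vegfb* at 126. *Angpt1* averaged 29.3, *Hif1a* 17.3, *Apln* 16.4, *Vegfc* 5.46, *Angpt2* 2.36 and *Pgf* 0.838. *Vegfa* ranked 51 among 17337 genes by mean normalized count and *Epas1* ranked 222, so that both were among the most abundant messages of these cardiomyocyte preparations. Which cells carried them was not tested. *Pgf* lay close to the limit of counting, with 2 to 55 reads in a library and a median of 14.

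Each gene was then compared between banded and sham animals within a ventricle, between the ventricles within a condition, and between the 2 sham ages within a ventricle. Normalized counts below are counts divided by the effective library size and brought back to the mean library, and a change was called when edgeR's Benjamini-Hochberg adjusted p over the 11954 genes was under 0.05. Many comparisons share libraries, RV and LV Sham-F above all, and are therefore not independent of each other.

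**Figure D1:**
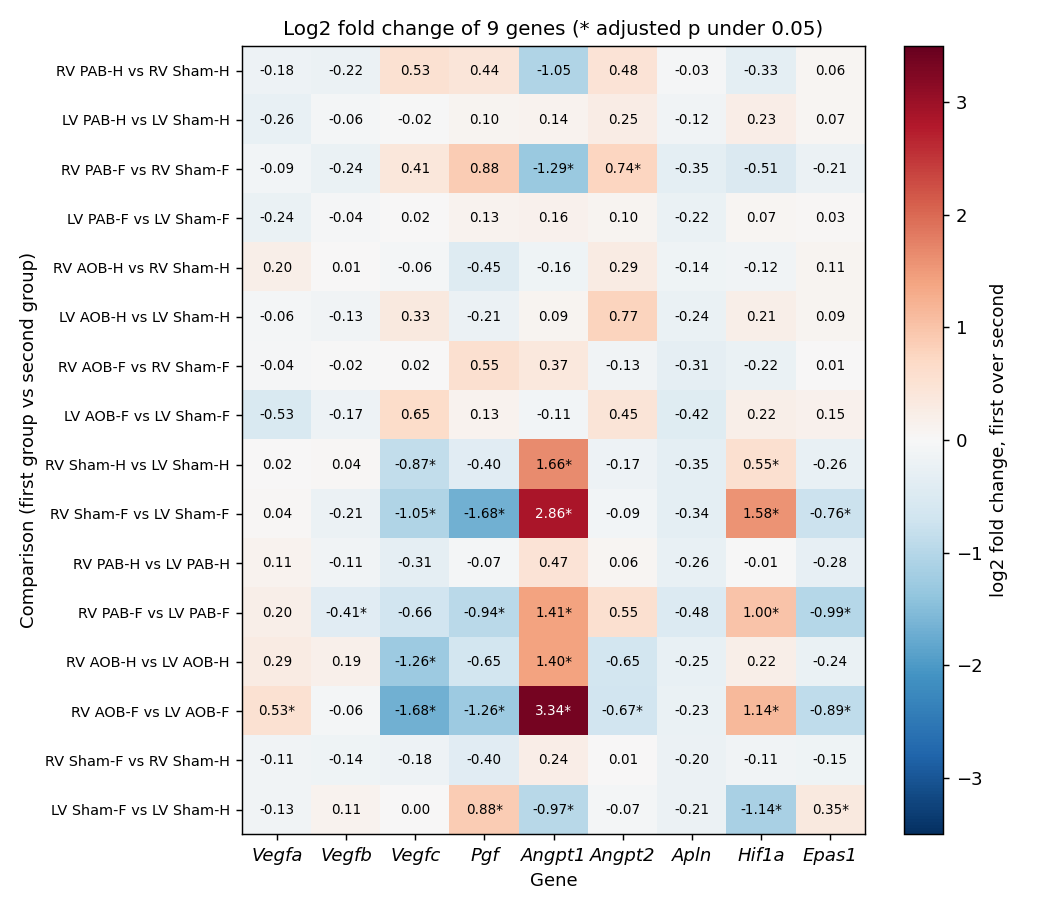
Log2 fold change of each gene (columns) in each comparison (rows), first group over second; an asterisk marks an adjusted p under 0.05. The *Angpt1* column spans the widest range, from -1.29 in the failing banded RV to 3.34 between the ventricles of AOB-F hearts. *Pgf* and *Vegfc* hold the lowest values of the map, and *Apln* has no asterisk.

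Pressure load changed few of the 9 genes. In the loaded failing RV (RV PAB-F against RV Sham-F), *Angpt1* fell and *Angpt2* rose, 2 of 9 against a background of 11.1% of tested genes called, and the median log2 fold change of the 9 was -0.21 against 0.02 over all tested genes. In the loaded RV at the compensated stage, none of the 9 was called by edgeR where 4.50% of genes were, with 1 at an unadjusted p under 0.05, and DESeq2 called 1 (*Angpt1*). In the loaded failing LV (LV AOB-F), none was called where 12.9% of genes were, with 2 (*Vegfa* and *Vegfc*) at an unadjusted p under 0.05 and none by DESeq2. In the compensated loaded LV (LV AOB-H), none was called where 0.0167% of genes were, with 1 at an unadjusted p under 0.05 and none by DESeq2. In the ventricles opposite the band, none of the 9 was called, had an unadjusted p under 0.05 or was called by DESeq2. The background was 0% of genes in LV PAB-H, LV PAB-F and RV AOB-H, and 0.0669% in RV AOB-F, so that few or no genes at all passed the test there.

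The ventricles differed far more than the banded and sham groups did. Between RV and LV, 3 of the 9 genes were called in Sham-H hearts (21% of all tested genes), 5 in Sham-F (74.3%), 5 in PAB-F (61.1%), 2 in AOB-H (7.98%) and 7 in AOB-F (67.1%). In PAB-H hearts none was called by edgeR or DESeq2 and none had an unadjusted p under 0.05, where 0.125% of genes were called. With RV and LV of the same animal paired, 8 of 9 were called in PAB-F hearts, where 7920 of all 11954 genes were, and 7 of 9 in Sham-F hearts, where 9233 were. Between the sham ages, 4 of 9 were called in the LV (57.4% of genes), and in the RV none was called by either tool or had an unadjusted p under 0.05 (0.0502% of genes).

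Endothelial marker shares differed between the ventricles. In RV against LV Sham-F, where 74.3% of all genes were called, 6 of the 7 tested endothelial markers were lower and 1 was higher. In Sham-H, where 21% of genes were called, 4 of 7 were lower. The summed share lay between 0.0413% and 0.0772% of counts in RV Sham-F and between 0.156% and 0.282% in LV Sham-F. In the LV the share was also higher at the older age, since LV Sham-H libraries had a median of 0.107%. The cardiomyocyte share moved the other way, with medians of 12.9% in RV Sham-F, 9.40% in LV Sham-F and 13% in LV Sham-H. The part of these shares in the ventricle and age results below was not tested.

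*Angpt1*, the TEK activator, was the gene with the widest differences. In RV Sham-F libraries it ranged from 1179.5 to 2060.2 normalized counts with a median of 1343, and in LV Sham-F libraries from 127 to 334 with a median of 189. The groups did not overlap, and in all 9 animals the RV exceeded the LV, by 2.47 to 3.22 on the log2 scale. The fitted log2 difference was 2.86 (SE 0.31, adjusted p = 1.0e-12), or 7.27-fold. In AOB-F hearts the RV held 896 to 4239 and the LV 63.1 to 444, a log2 difference of 3.34 (SE 0.36, adjusted p = 1.53e-11), again without overlap and with the RV higher in all 7 animals. In AOB-H hearts the difference was 1.40 (SE 0.36, adjusted p = 0.00691), without overlap, and it was lost without LV AOB-H replicate 6 (adjusted p = 0.0528).

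At the younger age the same gene was also higher on the right, with a smaller gap. RV Sham-H libraries ranged from 1036 to 1600.4 and LV Sham-H from 119 to 670.2, and the groups did not overlap (log2 difference 1.66, SE 0.34, adjusted p = 0.000445). The RV minus LV difference was larger at stage F than at stage H among sham hearts, by 1.20 on the log2 scale (SE 0.45, adjusted p = 0.0245). This call was lost without LV Sham-H replicate 1 or replicate 7, where the adjusted p reached up to 0.0661. Within the LV, *Angpt1* was lower in Sham-F than in Sham-H hearts (log2 fold change -0.97, SE 0.32, adjusted p = 0.00726), with LV Sham-F values falling inside the wide LV Sham-H range. In the RV the ranges overlapped between the ages, and the log2 difference was 0.24.

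**Figure D2:**
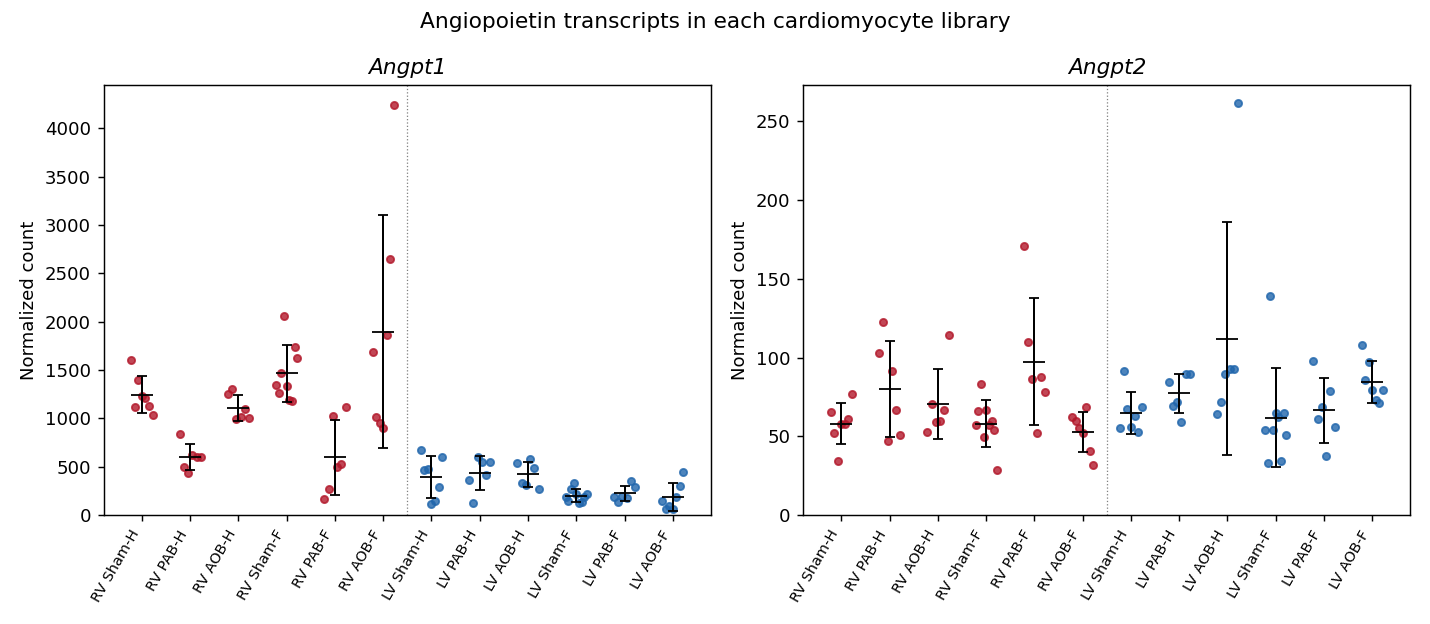
Normalized counts of *Angpt1* and *Angpt2* (y axes, from 0) in each of the 82 libraries by group (x axes), with RV in red, LV in blue, and the mean and SD of each group in black. RV Sham-H and RV AOB-H libraries all lie above the 6 RV PAB-H libraries for *Angpt1*, and LV AOB-H replicate 6 stands apart for *Angpt2* at 261.

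*Angpt1* was lower in the failing RV after pulmonary banding. RV PAB-F libraries ranged from 167 to 1114 with a median of 508, and all 6 lay below the lowest of the 9 RV Sham-F libraries at 1179.5. The log2 fold change was -1.29 (SE 0.34, adjusted p = 0.00759), which is 2.45-fold lower. The call did not hold without RV PAB-F replicate 1, the lowest library, where the adjusted p was 0.0626. In the compensated stage the 6 RV PAB-H libraries ranged from 436 to 839.6 against 1036 to 1600.4 in RV Sham-H and did not overlap with them either, at a log2 fold change of -1.05 (SE 0.35, adjusted p = 0.0609). DESeq2 called this difference (adjusted p = 0.0441) and so did an edgeR fit to these 2 groups alone (adjusted p = 0.00143). Without the 9 libraries of high marker share the log2 fold change was -1.14 (adjusted p = 0.131). The change did not differ detectably between the stages, since the F minus H difference passed the test for none of the 9 genes, or for any gene, in either tool, and none of the 9 had an unadjusted p under 0.05.

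In the LV of the same PAB-F animals *Angpt1* ranged from 139 to 353, against 127 to 334 in LV Sham-F, with a log2 fold change of 0.16. The RV response minus the LV response was -1.45 (SE 0.47), with an unadjusted p of 0.00286 and an adjusted p of 0.178, where 0.351% of genes were called. None of the 9 was called there by edgeR or DESeq2, and 2 had an unadjusted p under 0.05 (*Angpt1* and *Hif1a*). With each animal's ventricles paired *Angpt1* was called (log2 -1.68, adjusted p = 0.00559), where 349 of 11954 genes were. The corresponding difference in AOB-F hearts, LV response minus RV response, passed the test for no gene (0%) in either tool, and none of the 9 had an unadjusted p under 0.05. Without the 9 libraries of high marker share 488 genes passed there, none of the 9 among them. The RV minus LV difference in *Angpt1* was 1.41 (SE 0.37, adjusted p = 0.000703) in PAB-F and 0.47 in PAB-H hearts. In each of these conditions 1 of 6 animals had the higher value in the LV, at an RV over LV log2 ratio of -0.20 and -0.46.

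*Angpt2* was scarce, with 23 to 161 reads in a library. RV PAB-F libraries ranged from 52.4 to 171 with a median of 86.9 against 28.5 to 83.3 with a median of 57.4 in RV Sham-F, and 4 of 6 lay above every control. The log2 fold change was 0.74 (SE 0.24, adjusted p = 0.0339). This call was lost when any of 6 of the 15 libraries was left out (RV Sham-F replicates 4, 7, 8 and 9, RV PAB-F replicates 1 and 2), with an adjusted p of up to 0.273. Some endothelial, fibroblast and macrophage markers were also higher in RV PAB-F, where 11.1% of all genes were called in either direction. These were 2 of 7 tested endothelial, 3 of 7 fibroblast and 2 of 8 macrophage markers. None was lower, and the part of these markers in the change was not tested.

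Between the ventricles *Angpt2* was called in AOB-F hearts. All 7 LV AOB-F libraries, at 71.3 to 108, lay above the highest RV AOB-F library at 68.7, and the log2 difference was -0.67 (SE 0.25, adjusted p = 0.0139). In PAB-F hearts the order was the opposite, with more in the RV of all 6 animals, but the log2 difference of 0.55 was not called (unadjusted p = 0.0415, adjusted p = 0.0655). With the ventricles of an animal paired it was 0.52 (adjusted p = 0.0211). Against LV Sham-F, LV AOB-F had a log2 fold change of 0.45 (adjusted p = 0.181), and one of 0.69 (adjusted p = 0.00177) without the 9 libraries of high marker share. At the compensated stage the LV of aortic banded hearts had a log2 fold change of 0.77 (unadjusted p = 0.00328, adjusted p = 0.111) and fell to 0.31 without the 9 libraries of high marker share, since LV AOB-H replicate 6 alone held 261 normalized counts. The ratio of *Angpt1* to *Angpt2* FPKM brought both genes together. Its median was 24.9 in RV Sham-F, 4.17 in LV Sham-F and 9.23 in RV PAB-F, and it was lowest in LV AOB-F at 1.60. In RV PAB-F it ranged from 1.17 to 17.1, all below the lowest RV Sham-F value of 21.2, so that these groups did not overlap.

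*Vegfa* did not differ between banded and sham animals at the threshold in any ventricle or stage. Its group means ran from 15494 normalized counts in the LV of AOB-F hearts to 28645 in the RV of AOB-H hearts, and LV Sham-F libraries alone spanned 9831 to 36067. The failing loaded LV held the lowest levels, from 8794 to 26616 with a median of 15404, at a log2 fold change of -0.53 against LV Sham-F (SE 0.21, 95% interval -0.94 to -0.12, unadjusted p = 0.0127, adjusted p = 0.0754). Without the 9 libraries of high marker share it was -0.63 with an adjusted p of 0.00951, and leaving out single libraries moved the adjusted p between 0.0176 and 0.198. In AOB-F hearts the RV exceeded the LV by 0.53 (SE 0.22, adjusted p = 0.0280), a call lost without LV AOB-F replicate 1, 2 or 4 (adjusted p up to 0.0812). The RV was higher in 5 of 7 animals. In the 4 males the RV held 22411 to 26532 and the LV 8794 to 15404. In 2 females, replicates 5 and 7, the LV was higher (26616 against 18344 and 20310 against 16167). In the loaded failing RV the log2 fold change was -0.09, with RV PAB-F at 13996 to 24348 and RV Sham-F at 19223 to 25822.

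*Vegfb*, an FLT1 ligand, had group means between 2486 (RV PAB-F) and 3396 (LV Sham-F). It was called in a single comparison. In PAB-F hearts the RV held 1817 to 3488 and the LV 2773 to 4355, the RV was lower in all 6 animals, and the log2 difference was -0.41 (SE 0.13, adjusted p = 0.00644). In the other 5 conditions it was not called, and its log2 differences lay between -0.21 and 0.19. The Sham-F difference of -0.21 (adjusted p = 0.0750, lower in the RV of 8 of 9 animals) passed with the ventricles of an animal paired (-0.20, adjusted p = 0.0437) and in a fit to these 2 groups alone (adjusted p = 0.0494).

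*Vegfc* was called as lower in the RV than in the LV in 4 of the 6 conditions. In PAB-H and PAB-F hearts its mean was also lower in the RV (107 against 133 and 87.1 against 137), without a call. LV Sham-F libraries ranged from 73.5 to 245 with a median of 135, and RV Sham-F from 40.2 to 90.7 with a median of 70.5. The RV was lower in all 9 Sham-F animals (log2 difference -1.05, SE 0.25, adjusted p = 0.000154), in all 7 Sham-H animals (-0.87, SE 0.28, adjusted p = 0.0227) and in all 7 AOB-F animals (-1.68, SE 0.29, adjusted p = 5.16e-07). The AOB-H difference (-1.26, SE 0.31, adjusted p = 0.00393) was lost without LV AOB-H replicate 6 (adjusted p = 0.111), and the Sham-H difference without RV Sham-H replicate 1 or LV Sham-H replicate 4 or 5 (up to 0.0798). In PAB-F hearts the difference was -0.66 (adjusted p = 0.0518, DESeq2 adjusted p = 0.0372, and 0.0124 with the ventricles of an animal paired), and without the 9 libraries of high marker share it was -0.77 (adjusted p = 0.0121).

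*Vegfc* under load stayed below the threshold. In LV AOB-F it ranged from 74.4 to 335 with a median of 189.7 and a log2 fold change of 0.65 (SE 0.26, unadjusted p = 0.0126, adjusted p = 0.0750), and without the 9 libraries of high marker share it was 0.81 (adjusted p = 0.00479). In that reduced set 3427 of 12020 tested genes were called in LV AOB-F, against 1541 of 11954 with all libraries. In the loaded RV its log2 fold changes were 0.53 (PAB-H) and 0.41 (PAB-F), neither called.

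*Pgf*, the second FLT1 ligand, was lower in the RV at stage F. RV Sham-F libraries held 3.82 to 15.2 normalized counts and LV Sham-F 11.8 to 48.5, and all 9 animals had less in the RV (log2 difference -1.68, SE 0.35, adjusted p = 1.36e-05). The difference was -1.26 (SE 0.37, adjusted p = 0.00238) in AOB-F and -0.94 (SE 0.40, adjusted p = 0.0353) in PAB-F hearts, the latter lost when any of 7 of 12 libraries was left out (up to 0.0793). At stage H the ventricles were not called apart, and in the LV *Pgf* was 0.88 higher on the log2 scale in Sham-F than in Sham-H (SE 0.35, adjusted p = 0.0258), lost without LV Sham-H replicate 1, 2 or 6 or LV Sham-F replicate 3 (up to 0.0778). In RV PAB-F it had a log2 fold change of 0.88 (unadjusted p = 0.0280, adjusted p = 0.128). All of these rest on few reads per library.

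*Apln*, the apelin precursor, passed the test in none of the 20 comparisons. In 4 conditions its levels were nonetheless ordered within animals: in all 7 Sham-H, all 6 AOB-H, all 6 PAB-H and all 6 PAB-F animals the RV held less than the LV, with medians of the log2 ratio between -0.48 and -0.24. In 2 of 9 Sham-F and 3 of 7 AOB-F animals the RV held more, by up to 1.37 in AOB-F. With the ventricles of each animal paired, the log2 difference was called in Sham-H (adjusted p = 0.0424), Sham-F (adjusted p = 0.0245) and PAB-F hearts (-0.51, adjusted p = 0.00278). Of all 11954 genes the paired fit called 3887 in Sham-H, 9233 in Sham-F and 7920 in PAB-F hearts. In LV AOB-F the libraries of replicates 6 and 7 held 90.9 and 95.1 normalized counts where the other 5 held 616 to 1022. The RV libraries of the same 2 animals held 236 and 148 where the other 5 held 507 to 800. These animals also had the highest *Angpt1* of their groups in both ventricles, at 306 and 444 in the LV and 2646 and 4239 in the RV. Both are female, and they were singled out after their values were seen. Their LV libraries also had the lowest cardiomyocyte marker shares of the group (6.33% and 6.69%, against 8.64% to 11.1% in the others) and the highest macrophage shares (0.0315% and 0.0355%, against 0.00936% to 0.0270%). In the RV their macrophage shares were 0.0136% and 0.0174%, against 0.00677% to 0.00750% in the others. The part of these shares in the levels was not tested.

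*Hif1a* was lower in older than in younger sham hearts in the LV, and lower in the LV than in the RV of older hearts. LV Sham-F libraries ranged from 265 to 611 normalized counts with a median of 367, LV Sham-H from 342 to 1294 with a median of 912, RV Sham-F from 1008 to 1336 and RV Sham-H from 1068 to 1414. The LV age difference was -1.14 on the log2 scale (SE 0.18, adjusted p = 8.16e-07), and the RV age difference was -0.11. LV Sham-H fell into higher and lower libraries: replicates 4 and 5, at 342 and 517, lay inside the LV Sham-F range, and the same libraries had endothelial shares of 0.231% and 0.169% against 0.0666% to 0.110% in the other 5. The part of this share in the *Hif1a* level was not tested. Without the 9 libraries of high marker share, replicate 4 included, the age difference was -1.38 (adjusted p = 2.10e-12).

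In RV against LV Sham-F, *Hif1a* did not overlap and was higher in the RV of all 9 animals (log2 difference 1.58, SE 0.17, adjusted p = 6.78e-13). The same held in AOB-F (1.14, SE 0.19, adjusted p = 4.27e-07) and PAB-F hearts (1.0, SE 0.21, adjusted p = 3.16e-05), also without overlap. In Sham-H hearts the difference was 0.55 (SE 0.19, adjusted p = 0.0301), higher in the RV of all 7 animals, and it was lost without LV Sham-H replicate 4, 5 or 6 or RV Sham-H replicate 6 (up to 0.146). The stage F gap exceeded the stage H gap among sham hearts by 1.03 (SE 0.25, adjusted p = 0.00133), where 4 of the 9 genes and 41.6% of all genes were called. The other 3 were *Pgf* (-1.28), *Angpt1* and *Epas1* (-0.49). The calls of *Pgf* and *Epas1* were lost when any of 17 or of 20 of the 32 libraries was left out (adjusted p up to 0.0771 and 0.115).

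**Figure D3:**
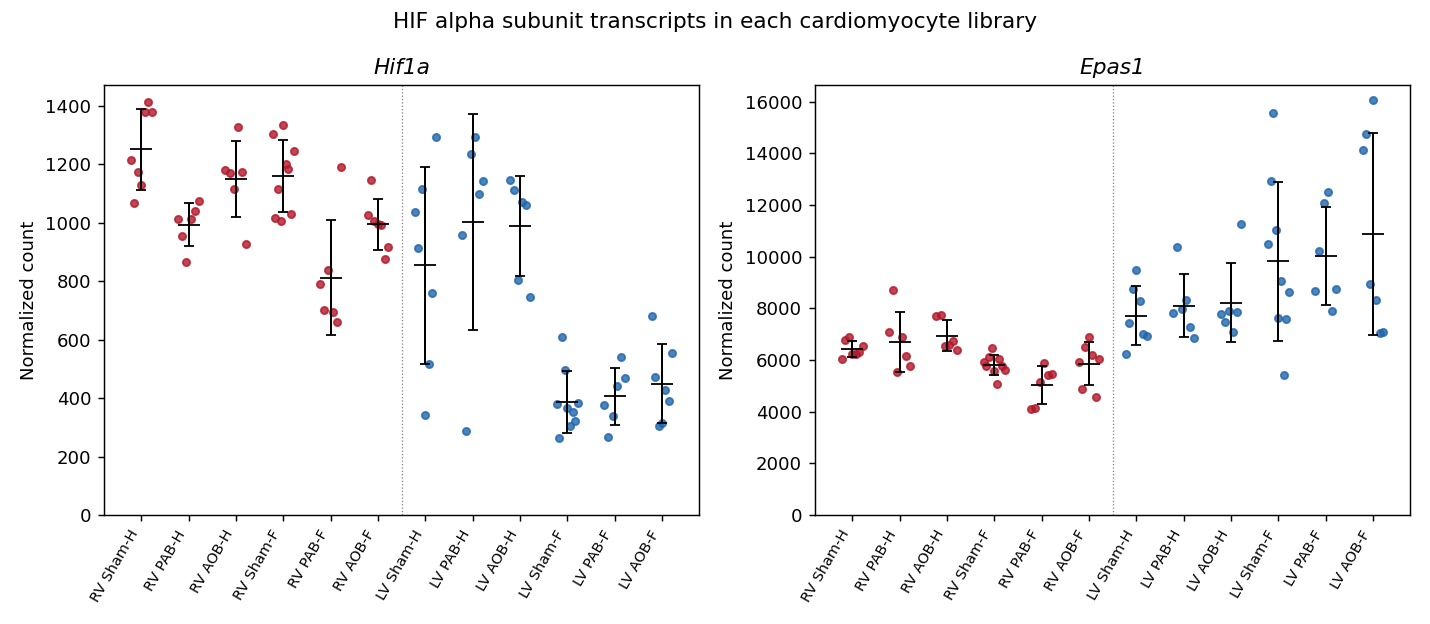
Normalized counts of *Hif1a* and *Epas1* (y axes, from 0) in each library by group (x axes), with RV in red, LV in blue, and the mean and SD of each group in black. *Hif1a* lies at 265 to 683 in the LV libraries of stage F and at 661 or more in all RV libraries, while *Epas1* is higher on the left.

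In the loaded failing RV, *Hif1a* ranged from 661 to 1191 with a median of 746 against 1008 to 1336 in RV Sham-F, and 5 of 6 libraries lay below every control. The log2 fold change was -0.51 (SE 0.19) with an unadjusted p of 0.00822 and an adjusted p of 0.0629. DESeq2 called it (adjusted p = 0.0396), and so did the fit without RV PAB-F replicate 6, the highest library (adjusted p = 0.0201), and the fit without the 9 libraries of high marker share (adjusted p = 0.0224). In RV PAB-H the log2 fold change was -0.33 (adjusted p = 0.349, and 0.0165 in a fit to these 2 groups alone), in the RV of AOB-F hearts -0.22 and in LV AOB-F 0.22.

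*Epas1* ran the opposite way between the ventricles. LV Sham-F libraries ranged from 5405 to 15580.0 with a median of 9044 and RV Sham-F from 5067 to 6465 with a median of 5789, and the RV was lower in 8 of 9 animals (log2 difference -0.76, SE 0.13, adjusted p = 4.42e-07). In PAB-F hearts the RV held 4121 to 5872 and the LV 7906 to 12496, and in AOB-F hearts 4572 to 6904 and 7043 to 16053, both without overlap. The log2 differences were -0.99 (SE 0.16, adjusted p = 5.61e-07) and -0.89 (SE 0.15, adjusted p = 3.63e-07). At stage H they were between -0.28 and -0.24 and not called. The rise with age in the LV, 0.35 (SE 0.14, adjusted p = 0.0297), was lost without any of 8 of 16 libraries and without those of high marker share (adjusted p = 0.0540). Banding left *Epas1* within 0.21 of its control on the log2 scale in every comparison.

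The ratio of *Epas1* to *Hif1a* FPKM separated the ventricles of older hearts. It ranged from 5.62 to 8.64 with a median of 6.87 in RV Sham-F and from 20.6 to 65.7 with a median of 31.8 in LV Sham-F. LV PAB-F and LV AOB-F had medians of 34.5 and 27.9 against 8.12 and 8.45 in the RV of the same hearts. At stage H the medians lay between 6.68 and 11.0 in all 6 groups, with single LV libraries reaching 37.3 (LV Sham-H), 20.4 (LV AOB-H) and 48.5 (LV PAB-H).

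**Figure D4:**
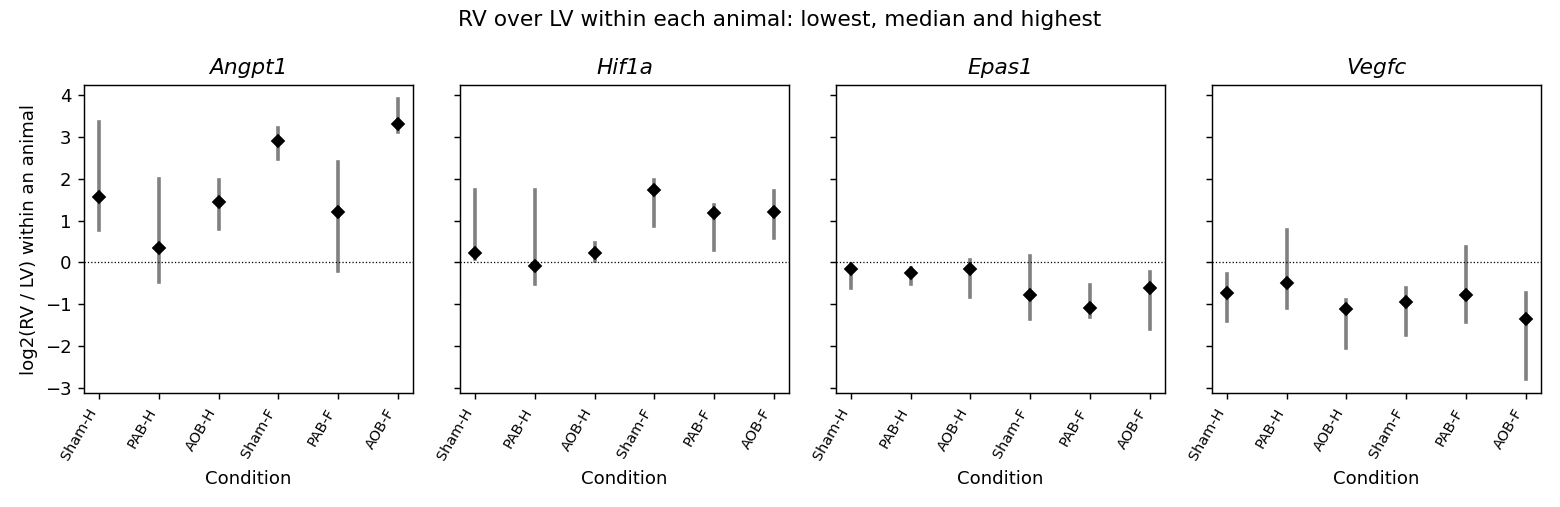
Log2 of RV over LV normalized counts within an animal (y axis) for *Angpt1*, *Hif1a*, *Epas1* and *Vegfc*; diamonds are medians over the 6 to 9 animals of a condition (x axis) and grey bars run from the lowest to the highest animal. *Angpt1* medians are 2.91 in Sham-F and 3.30 in AOB-F hearts against 0.35 in PAB-H, and *Epas1* and *Vegfc* medians lie below 0.

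Of 8 receptors of these ligands, 6 were lower in RV than in LV Sham-F and none was higher, beside 74.3% of all genes called in either direction, with a median log2 difference of -1.56 against -0.07 over all tested genes. *Aplnr*, the apelin receptor, had the widest gap (432 against 4258 normalized counts, log2 -3.30, SE 0.34, adjusted p = 9.74e-14), followed by *Tie1* (log2 -2.66), a partner of TEK, and *Flt4* (log2 -2.27). In Sham-H 6 of 8 were lower in the RV (21% of genes called in either direction), in AOB-H 7 (7.98%), in AOB-F 7 (67.1%) and in PAB-F 5 (61.1%), and none was higher. Between RV and LV of PAB-H hearts none of the 8 was called (0.125% of genes), at a median log2 difference of -0.28. In RV PAB-H, where 4.50% of genes were called, *Flt4* (log2 0.90), the co-receptor *Nrp2* (0.80) and *Flt1* (0.78) rose, and in RV PAB-F (11.1%) *Flt4* (1.09) and *Nrp2* (0.84), with medians over the 8 of 0.73 and 0.64 against 0.00 and 0.02 over all genes. In LV AOB-F (12.9%) *Tek* (0.71) and *Kdr* (0.54) rose. Without the 9 libraries of high marker share, 2 of which are RV PAB-H libraries, 84 genes in all were called in RV PAB-H in place of 538. These receptors are typical of endothelial cells, and 2 of 7 endothelial markers rose in the loaded RV at either stage, whereas the failing loaded LV had none called. All 7 tested fibroblast markers rose in RV PAB-H, and 4 of 8 macrophage markers in LV AOB-F. Their part in the receptor changes was not tested.

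Of 11 other secreted factors tested, 4 were higher and none lower in RV PAB-H (4.50% of genes called in either direction), among them *Figf* (the symbol used for the VEGF family ligand VEGFD, log2 1.77), the angiogenesis inhibitor *Serpinf1* (1.60) and *Thbs2* (1.16), a thrombospondin that restrains vessel growth. In RV PAB-F (11.1%) 3 were higher, *Serpinf1* (1.33), *Figf* (1.20) and the vasodilator peptide gene *Adm* (0.90). In LV AOB-F (12.9%) 4 were higher, with *Angptl4*, which encodes a lipase inhibitor, leading (480.3 against 126 normalized counts, log2 1.93, SE 0.48, adjusted p = 0.00524), then *Figf* (0.84) and the growth factor *Hgf* (0.83). Medians over the 11 were 0.70, 0.49 and 0.46 against 0.00, 0.02 and 0.04 over all genes. The libraries of high marker share were kept in these tests. Fibroblast markers rose as well, 7 of 7 tested in RV PAB-H and 3 of 7 in RV PAB-F, and their part was not tested. Between RV and LV Sham-F 5 were lower and 2 higher (74.3%).

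Genes that sense oxygen or partner with the HIF subunits changed in both directions. Of 8 tested, *Arnt2* (log2 2.28, 20.9 against 4.08 normalized counts) and *Vhl* (0.47) were higher and *Cited2* (-0.65), a HIF antagonist, lower in RV PAB-F (11.1% of genes called), and *Arnt2* alone rose in LV AOB-F (1.87, with 12.9% of genes called). The *Arnt2* change in RV PAB-F rests on few reads per library. Between RV and LV Sham-F, where 74.3% of genes were called, 3 were higher and 4 lower, with *Hif3a* (log2 -1.38), a further HIF subunit, *Arnt2* (-1.37) and the prolyl hydroxylase *Egln2* (732 against 1449.9 normalized counts, log2 -0.99, adjusted p = 3.18e-14) lower in the RV. Of 18 HIF target genes outside the 9, only *Loxl2*, a collagen crosslinking enzyme, was called in RV PAB-H (log2 1.08) and in RV PAB-F (1.14), where 4.50% and 11.1% of all genes were. The part of the fibroblast markers, of which 7 of 7 tested and 3 of 7 rose there, was not tested. In LV AOB-F 4 of 18 rose and none fell, where 12.9% of all genes were called in either direction, including the glucose transporter gene *Slc2a1* (0.54) and the collagen hydroxylase *P4ha1* (0.48). Medians of the 18 stood at 0.05, 0.22 and 0.14 in these comparisons. Between RV and LV Sham-F 7 of 18 were higher and 6 lower, where 74.3% of all genes were called, at a median of -0.12.

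The LV libraries of stage F differed by sex, which was looked at after the values were seen and is a description of these animals. *Vegfa* in LV Sham-F was 20696 to 36067 in 5 females and 9831 to 17956 in 4 males. In LV AOB-F it was 17423 to 26616 in 3 females and 8794 to 15404 in 4 males, and in LV PAB-F 24244 and 29438 in 2 females and 11186 to 18477 in 4 males. Females and males did not overlap in any of the 3 groups, nor in LV PAB-H, where 2 females lay above 4 males. How many of all genes lacked overlap between the sexes was not counted. Averaged over the 3 conditions of stage F, a fit with 1 mean per group and sex gave a female minus male log2 difference of 0.97 (SE 0.14, adjusted p = 1.55e-07) in the LV, where 37.3% of all genes were called. In the RV it was -0.05 (adjusted p = 0.944), and the LV minus RV difference was itself called (1.02, SE 0.19, adjusted p = 0.00232).

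*Vegfc* and *Epas1* ran the other way in these libraries. *Vegfc* was lower in females by 1.0 on the log2 scale (SE 0.20, adjusted p = 6.76e-05), with no overlap in any of the 3 LV groups of stage F or in RV Sham-F, and *Epas1* differed by -0.65 (SE 0.10, adjusted p = 5.58e-07). For both, the LV minus RV difference was called (adjusted p = 0.0401 and 0.00480). Endothelial shares in LV Sham-F were 0.223% to 0.282% in males and 0.156% to 0.250% in females. In LV AOB-F they were 0.233% to 0.318% and 0.159% to 0.249%, and in LV PAB-F 0.268% to 0.295% and 0.125% to 0.268%. Fibroblast shares were higher in every male than in every female of LV AOB-F and LV PAB-F, and overlapped in LV Sham-F. The part of these shares in the differences by sex, that of *Vegfa* included, was not tested. Of the 9 genes 6 were called by sex in the LV at stage F, where 37.3% of all genes were called, and 3 of 9 in the LV minus RV difference, where 6.91% were. The other 3 in the LV were *Angpt1* (0.74, higher in females), *Apln* (-0.70) and *Vegfb* (-0.24). *Angpt1* did not follow this order in LV Sham-F, with overlapping ranges and medians of 189 in females and 227 in males. In LV AOB-F and LV PAB-F every female lay above every male. The LV AOB-F females include replicates 6 and 7, at 306 and 444, while replicate 5 lay at 188 against a highest male of 144. LV PAB-F held only 2 females. For *Apln* the sexes overlapped in all 3 groups, and the females include LV AOB-F replicates 6 and 7, at 90.9 and 95.1. The *Vegfb* call was lost without LV Sham-F replicate 2 or 9, LV AOB-F replicate 4, 6 or 7 or LV PAB-F replicate 4 or 6 (adjusted p up to 0.196). By the same edgeR fit none of the 9 was called by sex in the RV at stage F (0.962% of genes, 1 at an unadjusted p under 0.05), in the LV at stage H (0.552%, 1) or in the RV at stage H (0.184%, 0), and DESeq2 was not run for sex. The groups held unequal shares of the sexes, and within each sex the LV AOB-F *Vegfa* median was below that of LV Sham-F (20310.0 against 30199 in females, 9955 against 13348 in males), with overlapping ranges. Sex as a covariate changed none of the calls between groups reported above.

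**Figure D5:**
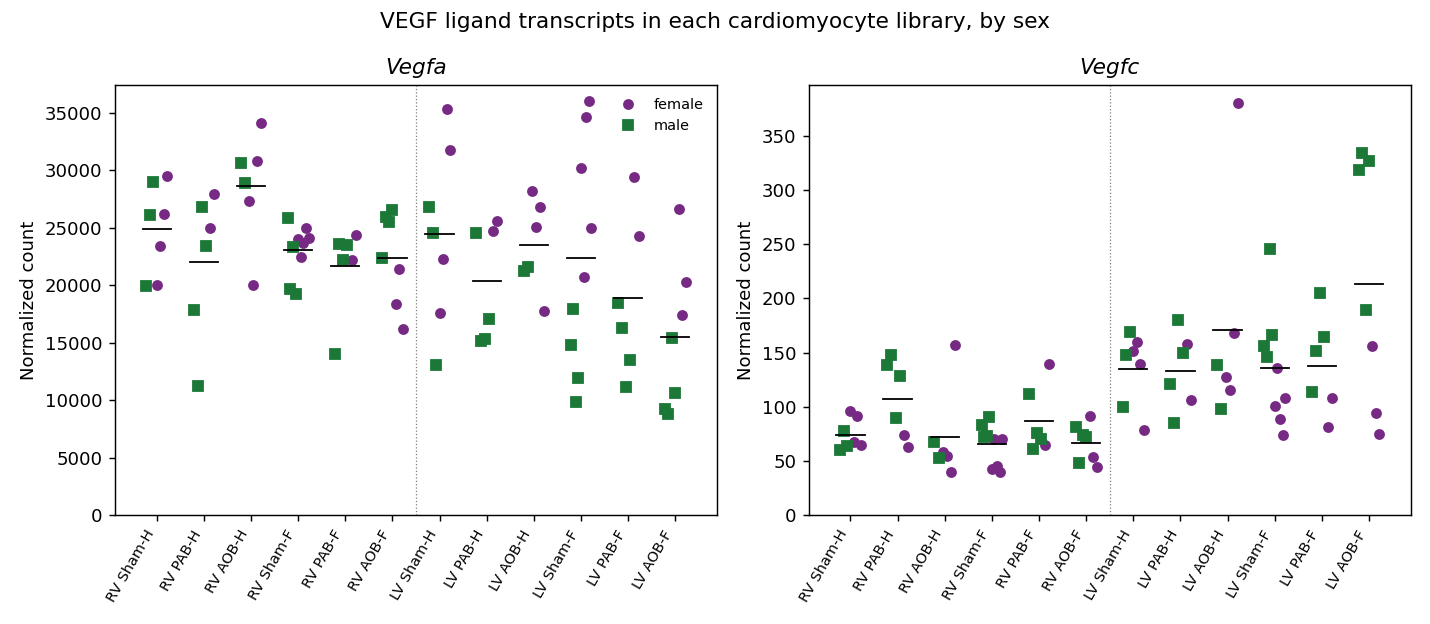
Normalized counts of *Vegfa* and *Vegfc* (y axes, from 0) in each library by group (x axes), with females as purple circles, males as green squares and group means as black lines. In the LV groups of stage F every female lies above every male of the same group for *Vegfa* and below every male for *Vegfc*, and in the RV groups *Vegfa* shows no such order except in RV AOB-F, where the 3 females lie below the 4 males.

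The genes most like each of the 9 were found by Pearson's r of log2 counts (scaled to library size) over the 82 libraries, which share ventricles, stages and animals, so that r describes these libraries only. *Vegfc* went with *Elk3* (r = 0.929), *Cdh5* (0.921) and *Flt1* (0.911), of which *Cdh5* is the endothelial cadherin. *Vegfa* went with *Trim63* (0.904), a muscle ubiquitin ligase, *Ppargc1b* (0.903), a coactivator of mitochondrial genes, and *Gpr17* (0.829). *Angpt1* went with *Epha3* (0.932), *Gpr22* (0.932) and *Hook1* (0.927), and *Angpt2* with *Tdrd7* (0.792), *Il1r1* (0.770) and *Tmod3* (0.768). *Hif1a* went with *Npat* (0.966), *Top2b* (0.962) and *Senp7* (0.956), and *Epas1* with *Ptgfrn* (0.891), *Clstn1* (0.873) and *Atp1b2* (0.872). *Apln* went with *Fndc5* (0.866), *Syt7* (0.859) and *Slc2a4* (0.844), the last being the insulin-responsive glucose transporter. *Vegfb* went with *Mrpl4* (0.857), *Gnas* (0.842) and *Atg9a* (0.842), and *Pgf* with *Stom* (0.801), *C1r* (0.790) and *Ntng2* (0.790).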

How the data were processed

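RNA from isolated rat ventricular cardiomyocytes (collagenase digestion on a Langendorff apparatus, filtration and centrifugation) was sequenced after rRNA depletion. The authors trimmed reads with Trim Galore, aligned them with STAR, counted genes with featureCounts and normalized with DESeq2 1.28.1. The deposited table held raw counts per gene, size-factor normalized counts (a signal, not used here for tests) and FPKM. Counts were tested with edgeR 4.0.16 in R 4.3.3 (TMM factors, filterByExpr, quasi-likelihood fit with 1 mean per group over all 82 libraries), with a call at an adjusted p under 0.05. FPKM served only to compare genes and to form ratios. DESeq2 1.42.0 was an alternative. The test was checked on simulated data. Whether counting used strand is not given in the sources used here.

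The 9 genes, the lists and the tests were chosen with earlier results of these data known. Of each list at most the 3 called genes of largest change in a comparison are named, and for each of the 9 genes the 3 tested genes of highest r. *Egln1* and *Vash1* were not analysed here. The values of 1 further list gene are not reported here. RV and LV libraries of the same animal identification number in the labels are paired. Their deviations from the group means correlated with medians of 0.186 to 0.297 per condition, against -0.0686 to -0.0142 between animals. Equal replicate numbers of banded and sham animals are different rats. No 2 libraries were identical, since at least 12904 genes differed between any pair. Animals are separate rats, each value is 1 library, and the spread includes isolation and sequencing. Alternatives were DESeq2 size factors, no filter, DESeq2, a fit to the groups compared alone, sex as a covariate, the criteria of the study (absolute log2 fold change over 1, unadjusted p at most 0.01, mean count over 50), a block for animal or replicate number, and each library left out. Leaving out the 9 libraries of high marker share and the comparison by sex were added after the data were seen.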

Additional observations from a re-analysis of the deposited data

Results flagged for a closer look

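Among 108 sets of values (9 genes in 12 groups), 14 had a library that stood further from its neighbours than Dixon's 95% limit allows, where chance gives about 1 in 20. LV AOB-H replicate 6, the shallowest library, was set apart by *Vegfb* (1562 normalized counts), *Vegfc* (379.9), *Angpt2* (261) and *Epas1* (11265), and the RV library of the same animal by *Vegfc* (157) and *Angpt2* (115). Their endothelial shares were 0.354% and 0.203%, against group medians of 0.0987% and 0.0533%, and the part of this in the values was not tested. LV PAB-H replicate 2 stood apart for *Pgf* (49.8) and *Hif1a* (289), with an endothelial share of 0.223%. In the failing loaded RV the libraries that stood apart were replicate 1 for *Vegfa* (13996), replicate 2 for *Pgf* (33) and replicate 6 for *Hif1a* (1191). RV PAB-H replicate 2, with the highest fibroblast share of all libraries (0.294%), was lowest for *Apln* (599.7). *Angpt2* was high in LV Sham-H replicate 2 (91.7) and LV Sham-F replicate 3 (139).

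In sham hearts the RV minus LV difference itself differed between the stages for 4 genes: *Pgf* (F minus H log2 -1.28), *Angpt1* (1.20), *Hif1a* (1.03) and *Epas1* (-0.49), each by the interaction contrast of the edgeR fit. Of all tested genes 41.6% were called in this contrast.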

How the results depend on the processing

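The reported fit called 32 of 180 gene and comparison results. Of these, 32 were kept with DESeq2 size factors, with DESeq2 and with sex as a covariate, 28 without the filter, 27 in fits to the groups compared alone, 28 with the replicate block, 31 without the libraries of high marker share and 14 by the criteria of the study. None changed sign. With each library left out in turn, 19 of the 32 were kept throughout. Counts of the 9 genes called were then as follows. In RV PAB-H they rose from 0 to 1 (DESeq2), 2 (fit to the groups compared), 2 (replicate block) and 1 (criteria of the study). In RV PAB-F they moved from 2 to 3 with DESeq2, in the fit to the groups compared and without the libraries of high marker share, to 1 by the criteria of the study, and ranged from 0 to 3 with a library left out. In LV AOB-F they went from 0 to 3 without the libraries of high marker share and ranged from 0 to 3 with a library left out. Between RV and LV they fell by the criteria of the study to 1 in Sham-H, 3 in Sham-F, 1 in PAB-F and 3 in AOB-F, and in AOB-H to 1 in the fit to the groups compared. With a library left out they ranged from 1 to 3 in Sham-H, 5 to 6 in Sham-F, 4 to 7 in PAB-F, 0 to 3 in AOB-H and 6 to 7 in AOB-F. For LV Sham-F against LV Sham-H the 4 calls became 2 in the fit to the groups compared, 1 with the replicate block and 1 by the criteria of the study, and 2 to 4 with a library left out. For the change of the sham ventricle difference with stage, the 4 calls became 2 without the filter and 2 by the criteria of the study, and 1 to 4 with a library left out. The criteria of the study called 1 gene in the RV minus LV response to PAB-F. Over all genes, leaving out the libraries of high marker share moved the calls from 538 to 84 in RV PAB-H, from 1541 to 3427 in LV AOB-F, from 42 to 21 in the RV minus LV response to PAB-F and from 0 to 488 in the LV minus RV response to AOB-F. In RV PAB-H, DESeq2 called 651 of all genes and the replicate block 1256, against 538. In RV PAB-F, DESeq2 called 1534 and the fit without libraries of high marker share 1010, against 1325. In LV Sham-F against LV Sham-H the replicate block called 4338, against 6860. Such totals are not given for fits to the groups compared, the fit without the filter, the criteria of the study or single libraries left out. The causes were not tested.

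The replicate block was the animal for RV against LV. It raised the calls in PAB-F hearts from 5 to 8 and in the RV minus LV response to PAB-F from 0 to 1, and gave 4 in Sham-H and 7 in Sham-F. Over all genes it called 7920 in PAB-F, 349 in that response, 3887 in Sham-H and 9233 in Sham-F. The reported fit called 7308, 42, 2510 and 8876. For banding and age it was a number shared by different animals, whose deviations correlated with medians of -0.103 to 0.160. With it *Angpt2* in RV PAB-F had an adjusted p of 0.0984 and *Hif1a* one of 0.0252, and in LV Sham-F against LV Sham-H *Hif1a* alone kept its call (0.0113). Depth limits *Pgf*, *Angpt2* and *Vegfc* most, with median counts of 14, 67 and 91 per library.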
